A study of Mus musculus with 12 samples.

Results

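Trimethylation of lysine 27 of histone H3 (H3K27me3) was compared gene by gene along the X chromosome between SmcHD1-deficient and wild-type mouse embryonic fibroblasts (MEFs). A gene entered the comparison when the deposited table held a value for it in both H3K27me3 libraries of MEFs, which was so for 739 of the 952 X-linked genes listed. The change of a gene is its log2 enrichment in the mutant library minus that in the wild-type library, and no gene was chosen by its value. With 1 library a side there was no spread between replicates and no test, so a gene is called lower or higher only from the size of its change, at 2-fold or more.

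The study profiled H3K9me3 and H3K27me3 in MEFs and in epiblast stem cells (EpiSCs), in 12 libraries of which 8 were ChIP and 4 were inputs. Wild-type (WT) MEFs had the genotype Smchd1+/+ Xist deltaA/+ and the mutant MEFs, called MD1 here, had the genotype Smchd1MD1/MD1 Xist deltaA/+. Both came from female embryos at stage E13.5 of a cross of C57BL6/J with (JF1 x C57BL6/J F1), and both carried the deltaA allele of Xist on 1 X. Chromatin was precipitated with the mouse monoclonal antibody CMA323. EpiSCs came from stage E6.5 and, like the MEFs, were female, of the same cross, of the same WT and MD1 genotypes and tested with the same H3K27me3 antibody. The sources used here do not say how many embryos or cultures went into each library. The table covers X-linked genes only, so the autosomal Smchd1 gene and the autosomal markers of fibroblasts were not analysed here, and the labels of genotype and cell type were not checked.

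H3K27me3 is written by Polycomb repressive complex 2 and marks genes that are kept silent. On the inactive X of female cells, Xist RNA brings Polycomb complexes to the chromosome, and the mark spreads over most of its genes. SmcHD1 is a chromosomal protein related to the SMC family that joins the inactive X after Xist and is needed to keep many of its genes silent. The deltaA allele lacks the A repeat that Xist needs for silencing, so the X that carries it stays active and the other one is inactivated.

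The deposited values are log2 ratios of whole numbers, read here as ChIP over input counts, times 1 constant per library. The smallest such numbers were sought with 1 input number shared by H3K27me3 and H3K9me3 of the same cells. Summed over genes, they came to 879526 for H3K27me3 ChIP and 237146 for input in WT MEFs. In MD1 MEFs these sums were 1186942 and 327173. The median input number per gene was 99 in WT and 129.5 in MD1. From these numbers each change was given a 95% counting interval, which covers counting error only. Input numbers followed gene length (Spearman rho of 0.95 in WT and 0.94 in MD1 across genes), as for values taken over the whole gene. With these numbers the H3K27me3 constants were 1.08 in WT and 1.41 in MD1 MEFs. The sources used here do not say which X the reads come from or what sets the constants. Every change thus holds the ratio of 2 constants whose origin is not stated. With these numbers the MD1 constant is the larger, which adds the same positive amount to every change and to their median. In a bulk library, fewer cells with the mark and less of the mark per cell cannot be told apart.

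The mark was spread more evenly over the genes of the X in WT than in MD1 MEFs. The WT levels had a median of 2.10 (log2 enrichment), with quartiles of 1.42 and 2.50 and a range from −3.21 to 3.81. The MD1 levels had a median of 2.39, with quartiles of 0.97 and 2.83 and a range from −5.53 to 4.62. The SD across genes was 1.02 in WT and 1.85 in MD1, so the MD1 values were the wider on both sides. Genes under the input level, a log2 value of 0 as deposited, numbered 50 in WT and 133 in MD1, while genes at least 8-fold over input numbered 45 and 97.

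The changes ran in both directions and reached much further down than up. Of the 739 genes, 177 (24.0%) were at least 2-fold lower in MD1 and 165 (22.3%) at least 2-fold higher, and the other 397 changed by less. At 8-fold or more, 81 genes (11.0%) were lower and 6 were higher, and at 16-fold or more 48 were lower and none was higher. The counting interval excluded 0 for 173 of the 177 lower genes, 153 of the 165 higher genes and 217 of the 397 others. It lay wholly beyond 2-fold for 146 genes on the lower side and 74 on the higher side. The median change of all genes was 0.34 on the log2 scale, and subtracting it moved the counts to 196 lower and 112 higher, a share of lower genes among those called of 63.6% in place of 51.8%. Subtracting 0.28, the median of genes with H3K9me3 under 2-fold over input in WT MEFs, gave 194 lower and 118 higher. That set holds most of the genes, since the median WT H3K9me3 level of all genes was −0.07. Among the 593 genes of at least 5000 bases, 148 were lower and 108 higher.

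**Figure D1:**
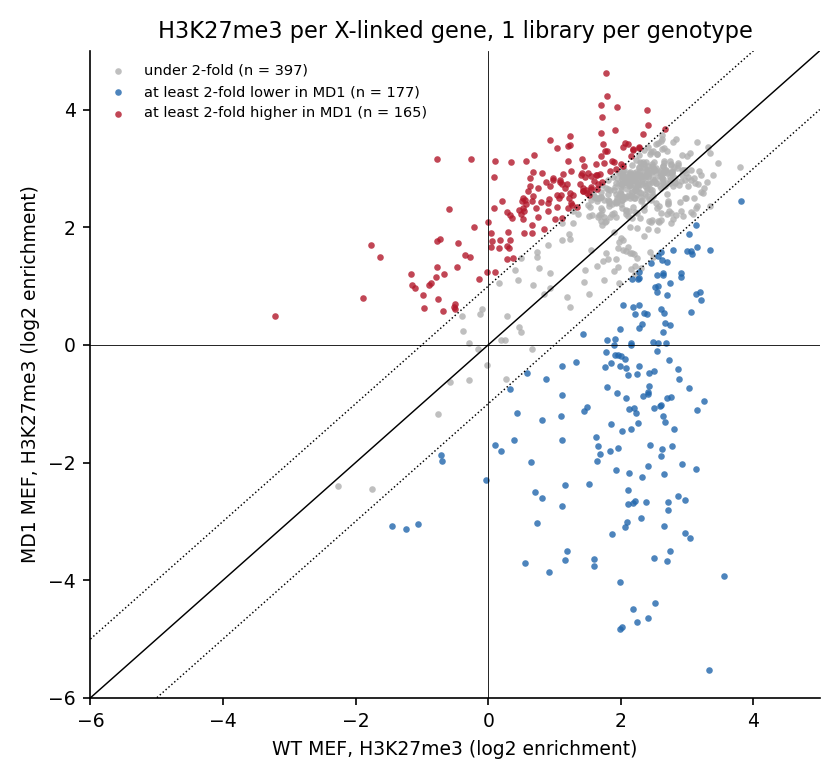
H3K27me3 log2 enrichment of 739 X-linked genes in the WT MEF library (horizontal axis) and the MD1 MEF library (vertical axis), 1 point per gene, with a solid line of equal values and dotted lines at 2-fold. The 177 lower genes (blue) drop from WT values mostly above 0 to MD1 values as low as −5.53, while the 165 higher genes (red) start mostly at low WT values and end near the bulk of the genes.

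Genes that were lower mostly went from over to under the input level. Of 120 genes over input in WT and under it in MD1, 118 were lower, with a median level of 2.11 in WT and −1.62 in MD1. In the other direction, 37 genes went from under to over input, of which 32 were higher, with medians of −0.66 in WT and 1.13 in MD1. The remaining 13 genes were under input in both libraries, with medians of −0.72 in WT and −1.97 in MD1. Of these, 6 were lower and 0 higher, so a lower call also fell on genes with no enrichment over input in WT. Among the 569 genes over input in both, 53 were lower and 133 higher.

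The change followed the WT level, which is itself one of the terms of the change. With the genes in 4 classes of equal size by WT level, 30 of the lowest class were lower and 115 higher, with a median change of 1.36. In the highest class 66 were lower and 1 was higher, with a median change of −0.45, and most of that class was under 2-fold. Awat2, an acyltransferase gene of skin, had levels of 2.97 in WT and 2.98 in MD1, and Maged2, a MAGE family gene, had 2.93 and 2.97. In all, 16 genes had changes within 0.05 of 0, among them Prdx4, a peroxiredoxin, at 0.84 and 0.86, and Rbmx, an RNA-binding protein gene, at 1.89 and 1.92.

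The lower and higher genes differed in the sequence at their start sites. CpG islands are stretches rich in the CG dinucleotide at the start sites of most broadly expressed genes. Promoters were taken from RefSeq (GRCm38.p6) as 250 bases before to 50 after the start, and 621 of the 739 genes had one. A promoter was called CpG-rich at an observed over expected CG count of at least 0.6. The 250 bases before the start of 4 genes show the contrast, with CG in capitals. Huwe1, a ubiquitin ligase, and Nono, a nuclear RNA-binding protein, are 2 of the genes with the firmest decreases, and Htr2c, a serotonin receptor of neurons, and Zfp300, a zinc finger gene, are among the firmest increases.
Huwe1 (chrX:151803032-151803281, plus strand): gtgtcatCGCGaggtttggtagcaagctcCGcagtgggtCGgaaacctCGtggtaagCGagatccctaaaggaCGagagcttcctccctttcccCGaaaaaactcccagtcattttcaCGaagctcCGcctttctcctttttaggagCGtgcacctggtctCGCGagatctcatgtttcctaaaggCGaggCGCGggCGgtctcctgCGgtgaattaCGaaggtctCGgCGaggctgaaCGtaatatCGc
Nono (chrX:101429401-101429650, plus strand): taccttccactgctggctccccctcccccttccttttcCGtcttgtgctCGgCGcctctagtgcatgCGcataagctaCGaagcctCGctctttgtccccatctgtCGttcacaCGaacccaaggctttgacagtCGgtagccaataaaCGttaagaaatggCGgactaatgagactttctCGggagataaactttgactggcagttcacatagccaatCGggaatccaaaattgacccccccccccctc
Htr2c (chrX:146962263-146962512, plus strand): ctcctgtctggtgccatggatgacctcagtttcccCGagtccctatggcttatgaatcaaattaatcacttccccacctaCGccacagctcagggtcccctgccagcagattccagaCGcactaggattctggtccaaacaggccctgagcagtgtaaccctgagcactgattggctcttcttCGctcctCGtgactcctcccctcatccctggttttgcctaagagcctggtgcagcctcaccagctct
Zfp300 (chrX:21089230-21089479, minus strand): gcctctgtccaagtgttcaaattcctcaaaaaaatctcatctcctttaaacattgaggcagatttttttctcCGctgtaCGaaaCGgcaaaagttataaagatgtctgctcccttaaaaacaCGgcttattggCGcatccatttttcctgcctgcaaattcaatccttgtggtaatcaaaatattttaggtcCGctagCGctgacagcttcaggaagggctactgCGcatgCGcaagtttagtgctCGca
These stretches hold 23 CG in Huwe1, 13 in Nono, 5 in Htr2c and 10 in Zfp300, and the ratios over the full 300 bases are 1.22, 1.03, 0.22 and 0.81. Zfp300 goes against the contrast: its promoter is CpG-rich and its H3K27me3 was higher in MD1.

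The levels of these 4 genes show the range of the data. Huwe1 had a log2 level of 2.74 in WT and −3.51 in MD1, a 76.0-fold decrease (change of −6.25, counting interval −6.76 to −5.73). Nono had 2.51 in WT and −4.40 in MD1, a change of −6.90 (interval −8.02 to −5.79). With 0.1 added to each linear enrichment these changes were −5.17 for Huwe1 and −5.30 for Nono. Both genes were well over input in WT and far under it in MD1. Htr2c had 0.49 in WT and 2.23 in MD1, a change of 1.74 (interval 1.62 to 1.85). Zfp300 had −1.77 in WT and 1.69 in MD1, a change of 3.47 (interval 2.57 to 4.37). These 2 genes had little or no enrichment in WT and were enriched in MD1, at levels under the MD1 median of all genes.

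CpG-rich promoters were found at 109 of 154 lower genes with a promoter sequence (70.8%), 118 of 333 genes under 2-fold (35.4%) and 23 of 134 higher genes (17.2%). Over all 621 genes the share was 40.3%. It was 27.9% over all 1046 X-linked promoters given by RefSeq. Read the other way, 109 of 250 genes with a CpG-rich promoter (43.6%) were lower, and their median level went from 2.19 in WT to 1.29 in MD1. Of 371 genes with a CpG-poor promoter, 45 (12.1%) were lower and 111 higher, and their median level went from 2.02 to 2.55. The 2 sets thus started from like levels in WT and stood apart in MD1.

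The share of lower genes was larger at each step of the CpG ratio. It was 3.28% of 122 genes with a ratio under 0.2, 17 of 126 genes between 0.2 and 0.4, 19.5% of 123 genes between 0.4 and 0.6, 35.3% of 139 genes between 0.6 and 0.8, and 54.1% of 111 genes at 0.8 or more. The median change over the same steps was 0.80, 0.55, 0.51, −0.35 and −1.41. Across the 621 genes, Spearman's rho between CpG ratio and change was −0.45, a description over genes that share both libraries. The contrast was present at each WT level: in the 4 classes of WT level, from low to high, 39.6%, 44.1%, 37.3% and 52.1% of CpG-rich genes were lower, beside 8.49%, 5.26%, 14.0% and 22.6% of CpG-poor genes.

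**Figure D2:**
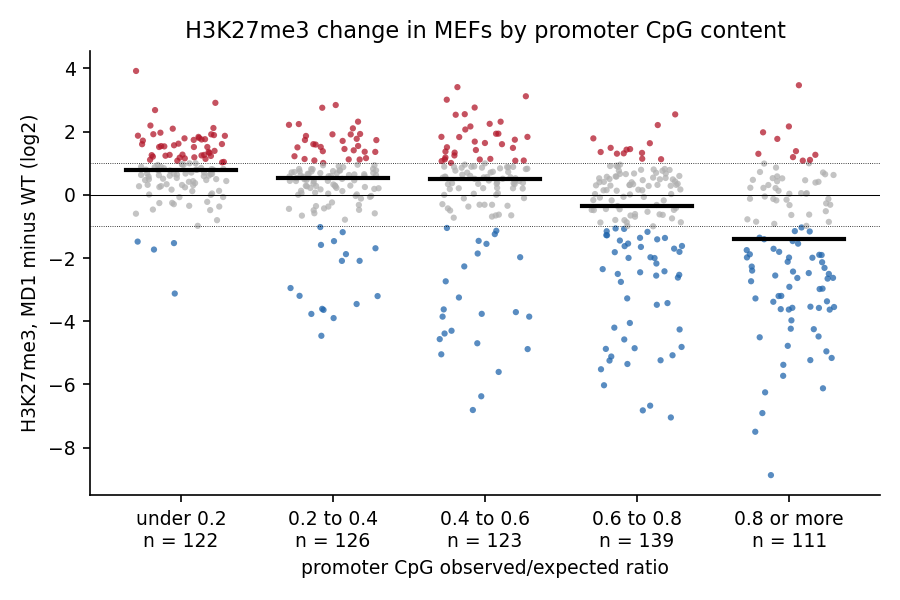
Change in H3K27me3 (MD1 minus WT, log2) of the 621 genes with a promoter sequence, in 5 steps of the promoter's CpG observed over expected ratio, 1 point per gene with black bars at the medians and dotted lines at 2-fold. The median goes from 0.80 in the step under 0.2 to −1.41 in the step at 0.8 or more, and the lower genes (blue) are most numerous on the right.

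Known promoter motifs gave smaller contrasts. GGGCGG, the core of the GC box bound by Sp factors, was present on either strand in 61.7% of lower, 44.4% of under 2-fold and 33.6% of higher genes, beside 46.4% of the 621 genes and 33.4% of all X-linked promoters. ATGGCG, which is part of the YY1 motif, was present in 16.9%, 12.0% and 5.97% in the same order, beside 11.9% of the 621 genes and 8.99% of all X-linked promoters. Both motifs contain CG and so overlap with the CpG ratio. The relation to gene length ran in no single direction (Spearman's rho of −0.054 across 739 genes). With the genes in 4 classes of equal size by length, from short to long, 21.6%, 31.4%, 27.7% and 15.1% were lower and 38.9%, 20%, 14.1% and 16.2% higher. The median length was 15716 bases for lower, 25434 for under 2-fold and 9472 for higher genes.

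The firmest decreases, those with the interval bound farthest from 0, included many genes used in most cell types. Flna, which codes for the actin crosslinker filamin A, had a level of 2.18 in WT and −4.49 in MD1. Ogt, the enzyme that adds N-acetylglucosamine to nuclear proteins, had 2.50 and −3.62. Both were enriched in WT and under input in MD1. Med14, a Mediator subunit, had 2.71 and −2.67. Bcap31, a chaperone of the endoplasmic reticulum, had 2.93 and −2.02. Yipf6, a Golgi membrane protein gene, had 3.13 and −2.11, so the decreases of these 3 genes were between 31.0-fold and 41.6-fold.

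The largest change of all rests on few counts. Fam50a, a gene for a nuclear protein linked to splicing, had 3.34 in WT from 103 ChIP and 11 input counts, and −5.53 in MD1 from 1 ChIP and 65 input counts. Its change of −8.87 carries an interval from −11.85 to −5.88. Pdzd11, a gene for a PDZ domain protein, had 2 ChIP counts in MD1 and a change of −7.49 (interval −9.68 to −5.31). For such genes the decrease is large at either end of the interval and its exact size is not set.

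Among the firmest increases, Pcdh11x, a protocadherin of the nervous system, had −1.15 in WT and 1.02 in MD1, a change of 2.17 with a narrow interval (2.06 to 2.28) because the gene is 620292 bases long. Slitrk4, a synaptic membrane protein gene, had 0.57 and 3.13. Slc38a5, an amino acid transporter gene, had 0.08 and 2.85. These 3 genes were near or under input in WT and clearly enriched in MD1. Prrg1, a membrane protein gene, had 0.29 and 2.25. Mageb16 and Mageb18, members of the testis-expressed MAGE family, had −0.21 and 0.54 in WT and 2.01 and 2.28 in MD1. Fam47c had the largest increase, from −0.77 to 3.15, on 6 ChIP counts in WT and 6 input counts in MD1 (interval of the change 2.02 to 5.82).

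Gene lists were described by the counts of lower and higher members, to be read beside 24.0% lower and 22.3% higher over all genes. Of 183 genes in 9 lists of functions used by most cells, 101 (55.2%) were lower and 9 (4.92%) higher, and their median level went from 2.15 in WT to 0.52 in MD1. Of 114 genes in 9 lists of lineage-specific, germline and retrotransposon-derived genes, 9 (7.89%) were lower and 43 (37.7%) higher, and their median level went from 1.99 to 2.64. CpG-rich promoters made up 65.3% of the first set and 23.2% of the second. The first set pools the ubiquitin, transcription, chromatin, translation, RNA, mitochondrial, sugar, glycosylation and DNA repair lists. The second pools the neural, developmental, blood, Bex, gag-derived, MAGE, Rhox, Ssx and Xlr lists. Lists were pooled with earlier results of these data known. Actin cytoskeleton genes (2 of 20 lower, 3 higher) and solute carriers (5 of 13 lower, 3 higher) are among those in neither set. Leaving out the 10% of genes with the lowest mean level, which kept 122 lower genes, moved some list medians given next by more than 1.5 times: to −1.52 for transcription, −0.66 for RNA-binding, −0.49 for mitochondrial and −1.01 for glycosylation, lysosome and traffic genes. The separate part of promoter sequence and gene function in these counts was not tested.

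Of 18 genes of the transcription machinery and Mediator, 13 were lower and 1 was higher, with a median change of −3.05. Taf1, the largest subunit of the general factor TFIID, had 2.65 in WT and −3.07 in MD1. Zfx, a zinc finger transcription factor, had 2.96 and −2.64, and Hcfc1, a promoter-bound cofactor, had 2.65 and −2.20. These were among 9 members lower by 8-fold or more. The paralogue of a TFIID subunit, Taf9b, was the higher member, with 1.28 in WT and 2.54 in MD1. Elf4, a factor of blood cells, had 2.16 in both libraries.

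Of 24 chromatin regulators, 13 were lower and 1 was higher, with a median change of −1.16. The cohesin genes Smc1a and Stag2 had levels of 3.14 and 1.62 in WT and −1.11 and −1.57 in MD1. Suv39h1, a methyltransferase for H3K9, had 0.81 and −2.61, and Morf4l2, a subunit of histone acetyltransferase complexes, had 1.87 and −3.21. The genes named next were chosen after their values were seen. Rbbp7, a histone-binding protein found in Polycomb repressive complex 2, had 2.28 and 1.13, and Bcor, which belongs to a variant Polycomb complex, had 3.09 and 2.22, a change under 2-fold. Bcorl1, its relative, had 2.52 and 2.42, and Scml2, a Polycomb protein of the germline, had 2.19 and 2.71. Kdm6a, a demethylase for H3K27me3, was under input in both libraries, at −1.76 and −2.45, and Jade3 was the higher member at 1.07 and 2.50.

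Of 15 ribosomal protein and translation genes, 11 were lower and none was higher, with a median change of −2.17. The ribosomal protein genes Rpl10, Rps4x, Rpl36a and Rpl39 had levels of 2.40, 2.01, 1.59 and 1.86 in WT and −4.64, −4.79, −3.64 and −0.32 in MD1. All 4 were enriched in WT and under input in MD1. Reads of ribosomal protein genes can be shared with processed pseudogenes, and the sources used here do not say how the authors counted such reads. Dkc1, of the enzyme that modifies ribosomal RNA, was not lower, with 1.95 and 2.45. Among 21 RNA-binding and RNA-processing genes 12 were lower and none was higher, with a median change of −1.54. Pqbp1, a splicing factor gene, had 0.91 and −3.87, while Mbnl3, a muscleblind family splicing regulator, had 2.77 and 2.94.

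Of 17 genes of DNA repair and cell division, 11 were lower and none was higher, with a median change of −2.74. Ercc6l, a helicase of mitotic chromosomes, had 2.11 in WT and −2.70 in MD1, and Kif4, a mitotic kinesin, had 2.66 and −1.31. Cenpi, a kinetochore gene, had 1.66 and −1.71. The 3 genes crossed the input level. Pola1, the catalytic subunit of DNA polymerase alpha, stayed at 2.13 and 2.01, and Ccnb3, a cyclin of meiosis, had 1.28 and 2.27, just under a 2-fold increase.

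Glycosylation, lysosome and vesicle traffic genes had 18 of 31 members lower and 1 higher, with a median change of −1.80. Lamp2, a lysosomal membrane protein gene, had 2.12 in WT and −2.18 in MD1, and Atp6ap1, which helps assemble the lysosomal proton pump, had 2.71 and −2.81. Mitochondrial protein genes had 15 of 29 lower and 2 higher, with a median change of −1.05. Ndufb11, of respiratory complex I, had 1.19 and −3.51, and Cox7b, of cytochrome c oxidase, had 2.41 and −2.05. The 2 higher members were the neighbouring monoamine oxidase genes Maoa and Maob, with 1.23 and 1.43 in WT and 2.59 and 2.61 in MD1.

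The ubiquitin pathway was split, with 13 of 27 genes lower, 4 higher and a median change of −0.17. Usp9x, a deubiquitinase, had 2.96 and −3.20, and Uba1, the main ubiquitin-activating enzyme, had 1.16 and −3.65. At the other end Klhl13, an adaptor of a ubiquitin ligase, had 0.57 and 2.40. Sugar and nucleotide metabolism genes had 6 of 17 lower and none higher, with a median change of 0.13. G6pdx, the first enzyme of the pentose phosphate pathway, had 1.99 and −4.03, while Prps2, a phosphoribosyl pyrophosphate synthetase, had 2.02 and 2.83. Solute carriers had 5 of 13 lower and 3 higher, with Slc6a8, the creatine transporter, at 2.44 and −1.70 and Slc9a7 at 1.11 and 2.74.

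**Figure D3:**
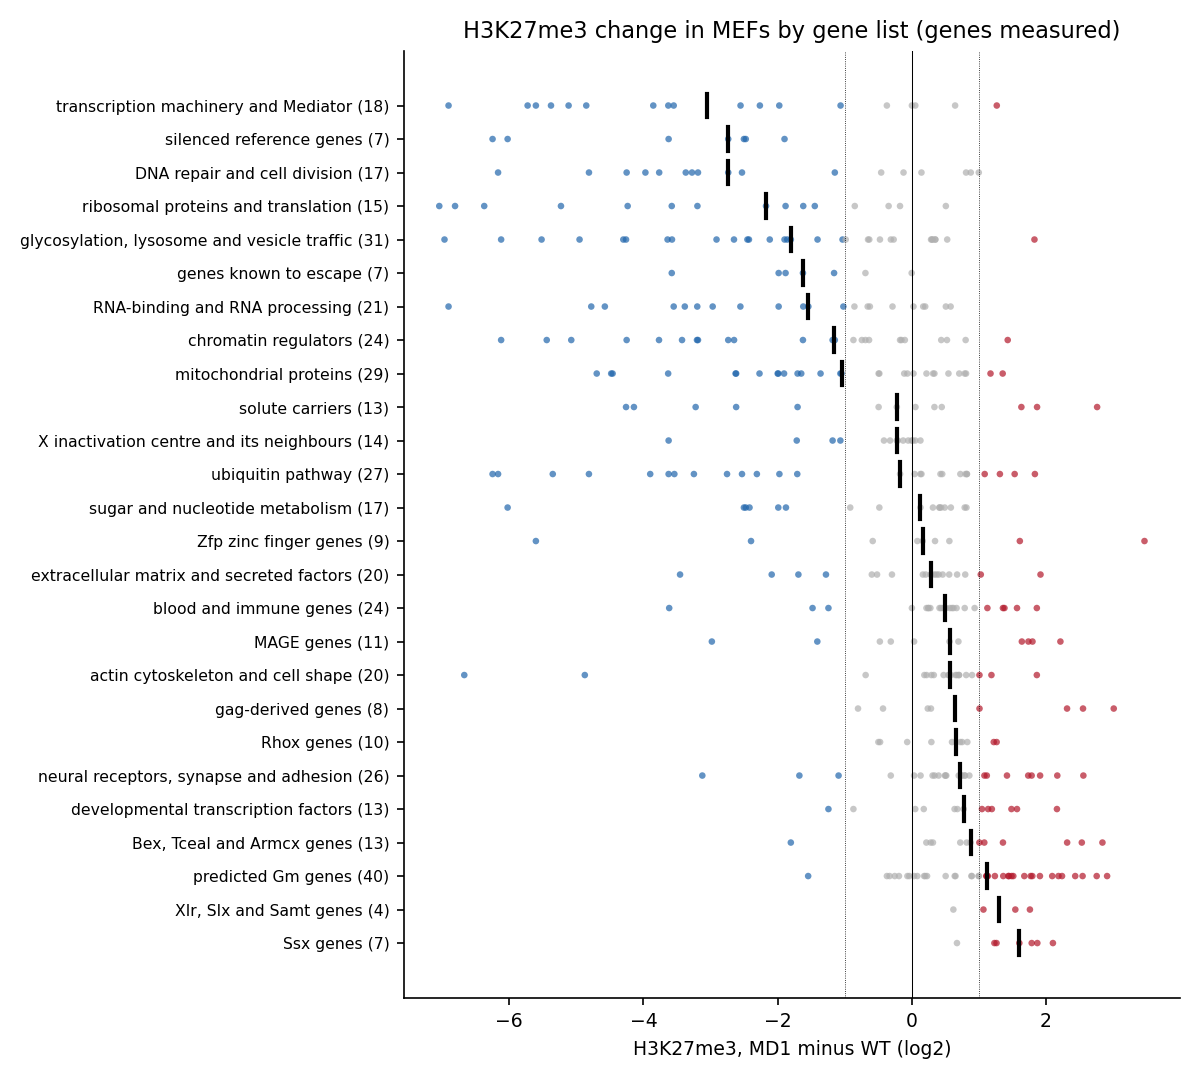
Change in H3K27me3 (MD1 minus WT, log2) of each measured member of the gene lists, 1 point per gene, with black bars at the list medians, dotted lines at 2-fold and the number of genes in brackets. Medians run from −3.05 for the transcription machinery to 1.60 for the Ssx genes, and single genes in most lists lie far from their list's median.

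Of 20 actin cytoskeleton genes, 2 (10%) were lower and 3 (15%) higher, with a median change of 0.57. The lower members were Flna and Msn, which codes for the membrane linker moesin and had 2.21 in WT and −2.66 in MD1. Dmd, the muscle gene for dystrophin, was higher at 1.43 and 2.62. Of 20 extracellular matrix and secreted factor genes, 4 (20%) were lower, near the share of all genes, and 2 (10%) higher. Bgn, a matrix proteoglycan gene active in fibroblasts, had 2.87 and −0.58, and Timp1, an inhibitor of matrix proteases, had 0.81 and −1.27. The basement membrane collagens Col4a5 and Col4a6 were under 2-fold, at 2.01 and 2.49 in WT and 2.56 and 2.82 in MD1.

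Of 26 neural receptor, synapse and adhesion genes, 3 were lower and 8 higher, with a median change of 0.72. Slitrk2, of the same family as Slitrk4, had 1.69 in WT and 3.61 in MD1, and Il1rapl1, a synapse organiser, had 0.75 and 2.17. Among the lower ones were Glra4 (2.42 and −0.70), a glycine receptor subunit, and Nlgn3 (3.13 and 2.04), a neuroligin. Of 13 developmental transcription factors, 1 was lower and 6 were higher. Esx1, a placental homeobox gene, had 1.72 and 3.88, and Gata1, the regulator of red cells, had 0.92 and 2.48, while Foxp3, the regulator of regulatory T cells, was the lower one at 1.42 and 0.18. Of 24 blood and immune genes, 3 were lower and 5 higher.

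Germline families, retrotransposon-derived genes and other families or naming groups differed in how many members were higher. Of 7 Ssx genes, a testis family, 6 were higher, with WT levels from −0.77 to 1.11 and a median change of 1.60. Of 8 gag-derived genes, which come from domesticated retrotransposons, 4 were higher and none was lower, and Ldoc1 had 0.94 in WT and 3.49 in MD1. Of 13 Bex, Tceal and Armcx genes, 6 were higher and 1 was lower. Bex1 had 1.78 in WT and 4.62 in MD1, the highest MD1 level of all genes. Of 10 Rhox homeobox genes of the reproductive tract, 2 (20%) were higher, near the share of all genes, and none was lower, with WT levels from 1.68 to 3.38. Of 11 MAGE genes, 4 were higher and 2 lower. Maged1, a MAGE gene of broad use, was a lower one at 2.72 and −0.26. Of 40 predicted Gm genes, 21 were higher and 1 was lower, and of 4 Xlr, Slx and Samt genes 3 were higher. The 9 Zfp zinc finger genes had 2 members lower and 2 higher. Members of some of these families are close copies of each other, and reads may be shared among them.

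Xist and its closest partners had small changes. Xist, the RNA that coats the inactive X, was under input in both libraries, at −2.27 in WT and −2.40 in MD1, and its activator Jpx was at −0.58 and −0.63. Tsix, the antisense partner of Xist, had 1.77 and 1.56, and reads of the 2 overlapping genes cannot be told apart. The neighbours Cdx4, a homeobox gene, and Chic1 had the highest WT levels of the list, 3.31 and 3.20, and had 3.36 and 2.88 in MD1. Of the 14 genes in and around the inactivation centre, 4 were lower and none was higher. Rlim, a ubiquitin ligase that acts on an inhibitor of Xist, had the largest decrease, from 2.59 to −1.03.

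Lower and higher genes lay in groups along the chromosome. After a lower gene the next measured gene was lower in 99 of 177 cases (55.9%), after a gene under 2-fold in 16.7%, and after a higher gene in 7.27%. After a higher gene the next one was higher in 93 of 165 cases (56.4%). Across 738 neighbouring genes, the change of a gene and that of the next had a Spearman's rho of 0.57, a description over genes that share libraries and, where they overlap, reads. Lower genes lay in gene-dense parts, with a median of 8 other listed genes within 250 kb, beside 4 for genes under 2-fold and 3 for higher genes.

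**Figure D4:**
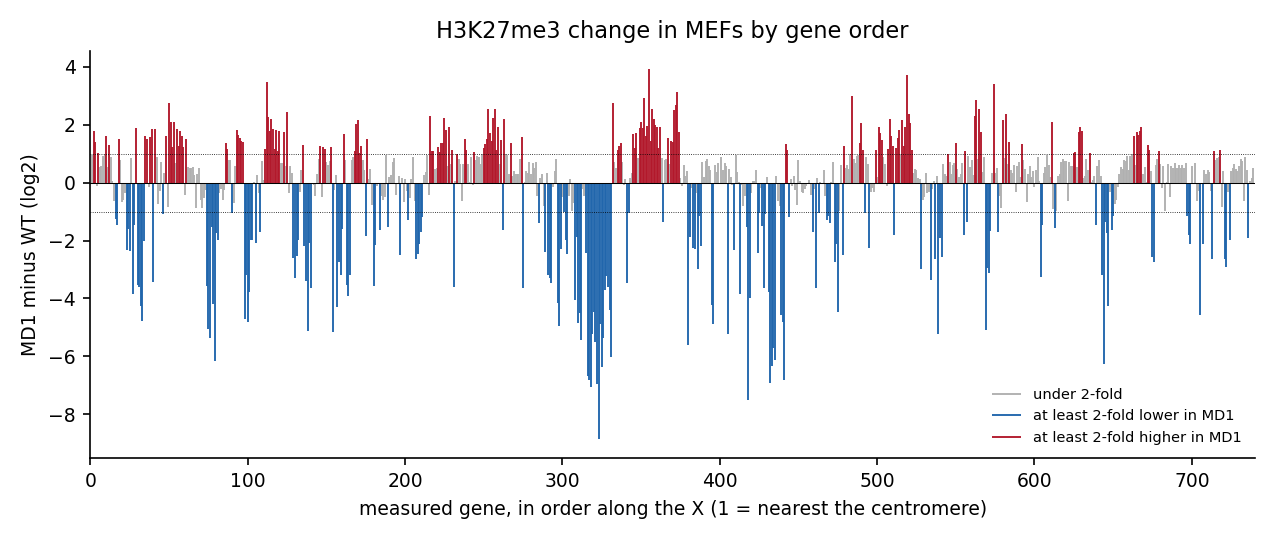
Change in H3K27me3 (MD1 minus WT, log2) of 739 genes in their order along the X, 1 line per gene, with dotted lines at 2-fold. Lower genes (blue) and higher genes (red) form stretches of up to 17 and 14 adjacent genes, and the lowest value, −8.87, lies in the longest blue stretch.

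Counted as runs of at least 3 adjacent measured genes, lower genes formed 25 runs with 112 genes and higher genes 19 runs with 101 genes. The longest lower run held 17 genes from Tktl1 to G6pdx (mm9, X, 71422598 to 71699117, a span of 276520 bases). Its median level went from 2.30 in WT to −2.94 in MD1, and 16 of its 17 genes were lower by 8-fold or more. The run includes Flna, Rpl10, Fam50a and G6pdx, given above, and Emd, the gene for the nuclear membrane protein emerin, at 1.99 and −4.83. Its genes are short, 10 of the 17 had fewer than 10 ChIP counts in MD1, and 5 overlap another gene. The run ended sharply. The flanking Opn1mw, a cone pigment gene, had 2.54 in WT and 2.32 in MD1, and Tex28, a testis gene, had 2.69 and 2.23. On the other side Gm6890 was higher, with 0.35 and 3.11.

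**Figure D5:**
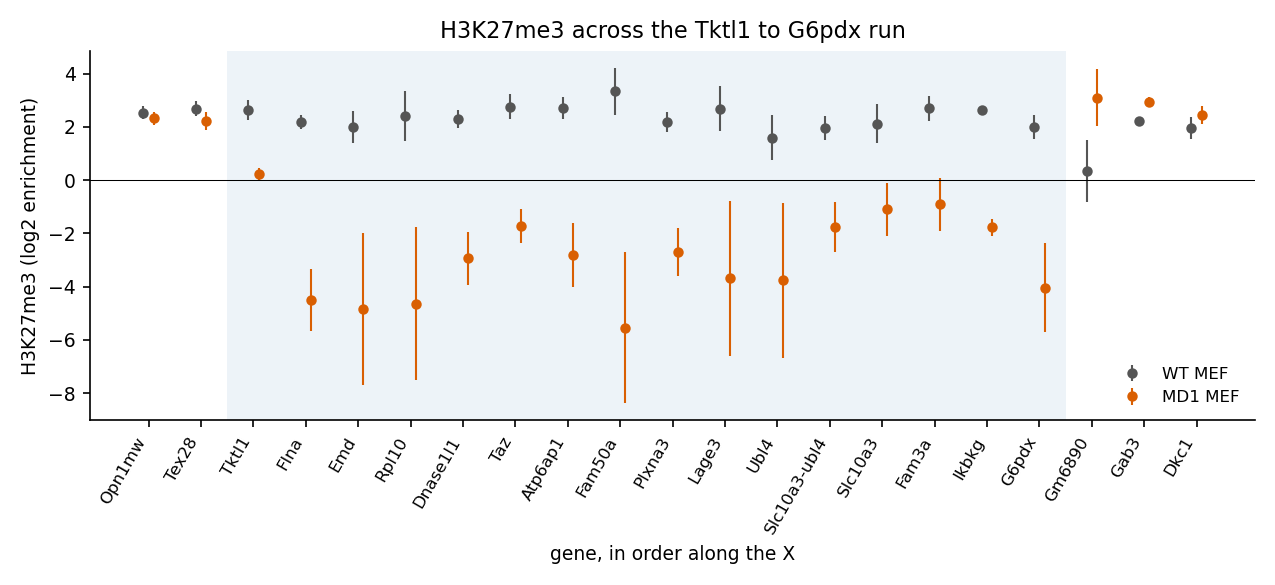
H3K27me3 log2 enrichment in WT (grey) and MD1 (orange) MEFs for 16 of the 17 genes of the run from Tktl1 to G6pdx (shaded) and for genes on each side, in chromosome order, with 95% counting intervals from the numbers behind each value. Every gene drawn in the run is above input in WT and, except Tktl1 at 0.22, under input in MD1, while Opn1mw and Tex28 next to it keep MD1 levels over 2.

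The next lower run held 8 genes from Atp6ap2 to Ddx3x (X, 12164885 to 12871109) and includes Med14 and Usp9x. Atp6ap2, a subunit associated with the proton pump, had 2.50 in WT and −1.08 in MD1. Ddx3x, an RNA helicase gene known to escape inactivation, was already under input in WT at −1.06 and had −3.04 in MD1. A further run, from Ndufb11 to Araf (X, 20192452 to 20437647), held 6 genes of modest WT level, with medians of 0.92 in WT and −2.76 in MD1. Araf, a kinase gene, had 0.39 and −1.61. Immediately beyond it, the neuronal gene Syn1 had 0.93 and 0.96, while Timp1, which lies inside Syn1, was lower. Before it Rgn, a liver enzyme gene, was higher with 1.51 and 2.93, so lower and higher runs met within a few genes. Sharp borders also flanked the 5-gene run from Zmym3 to Ogt (X, 98599723 to 98879690), whose median went from 2.65 to −3.28, with Gjb1, a connexin gene, at 2.08 and 2.29 before it and Cxcr3, a chemokine receptor gene, at 2.69 and 2.94 after it.

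The 6 higher runs with the most genes spanned between 2527764 and 9596434 bases, beside 276520 for the lower run with the most genes. Other higher runs were short, such as that from Cxx1a to LOC100504039 with 3 genes in 48844 bases. The higher run with the most genes held 14 genes from Prkx to Tsga8 (X, 75007374 to 82450389, a span of 7443016 bases), with a median level of 0.33 in WT and 2.28 in MD1, and includes Prrg1, Mageb16 and Dmd. Prkx, a kinase gene, had 0.86 in WT and 2.77 in MD1, and Tsga8, a testis gene inside Dmd, had 0.56 and 2.47. The run from Pcdh11x to Diap2 spanned 9596434 bases with only 7 measured genes and medians of −1.10 and 1.02. Diap2, a formin gene, had 0.85 and 1.97. The run from Spaca5 to Gm4907 held 10 genes, among them Zfp300 and Klhl13, with medians of 0.62 and 2.41. By 10 Mb intervals, all 6 genes between 120 and 130 Mb were higher, and 9 of 14 between 80 and 90 Mb. Between 70 and 80 Mb 35 of 78 genes were lower, 26 of them by 8-fold or more, and between 90 and 100 Mb 29 of 73 were lower and 2 higher.

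The other mark of the same cells differed between the 2 classes. Over all genes, 51.3% were at least 2-fold lower in H3K9me3 and 0.677% higher in MD1 MEFs. The median H3K9me3 change was −1.96 for genes lower in H3K27me3, −0.83 for genes under 2-fold and −0.89 for higher genes. Higher genes had more H3K9me3 in WT, with a median level of 0.91 beside −0.19 for lower genes, and in MD1 these medians were −0.32 and −2.09. Both marks are read as ratios to the input of the same cells, so no correlation between their changes was computed. The medians by class share this limit, since noise in the input enters both changes of a gene.

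In EpiSCs 11.3% of 708 genes were at least 2-fold lower in H3K27me3 in MD1 and 22.7% higher. The 2 cell types share 698 genes and no library, and across these genes the changes had a Spearman's rho of 0.47, given as a description with no replicate behind it. Genes higher in MEFs were often higher in EpiSCs too: 92 genes, 64.8% of the 142 higher in MEFs and 57.5% of the 160 higher in EpiSCs. For these 92 genes the median level went from 0.58 to 2.37 in MEFs and from 0.60 to 3.76 in EpiSCs. The overlap of lower genes was 43, 25.3% of the 170 lower in MEFs and 55.8% of the 77 lower in EpiSCs. Another 107 of the 170 (62.9%) were under 2-fold in EpiSCs, beside 461 of all 698 shared genes. These 107 genes had EpiSC medians of 4.28 in WT and 3.97 in MD1. Huwe1, only just under the 2-fold call in EpiSCs with a change of −0.99, had 4.62 in WT and 3.62 in MD1. Its levels there were far over input in both genotypes. Ogt was lower in both cell types, with 4.56 and 0.45 in EpiSCs. The difference between cell types was not tested, since each group holds 1 library.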

How the data were processed

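H3K27me3 and H3K9me3 were measured by ChIP-seq in MEFs and EpiSCs, 1 library per mark, genotype and cell type. The deposited values are log2 enrichments that the authors computed per gene, for 952 genes of the X. The tools named in the submitters' processing notes are SAMtools, BWA and cutadapt, and the genome build is mm9. The sources used here do not give their versions, the counting rule or a pseudocount. Coordinates are in mm9, counted from 1, except those of promoters (RefSeq, GRCm38.p6).

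Changes were computed in Python 3.11.15 with scipy 1.17.1 as MD1 minus WT, and called at 2-fold. No test and no p-value was possible with 1 library per group. Whole-number pairs behind the values were searched with a denominator of at most 120000 and a relative tolerance of 3e-13, and matched 100% of the values in both libraries. They are the smallest numbers found with 1 input number shared by the H3K27me3 and H3K9me3 values of the same cells. Real counts may be multiples of them. Counting intervals (95%, normal approximation on the log scale) cover counting error only and are rough where a pair holds few counts. The pair search was tested on data simulated from the recovered numbers themselves. Such a test cannot show that the recovered numbers are the real counts.

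Of the 739 genes, 736 matched a RefSeq name and 621 a promoter sequence. Where a gene had several starts (104 genes), the 5′-most was used. Named genes were the 15 largest decreases and increases ranked by the interval bound nearest to 0, list members including the largest and smallest changes, first and last genes and listed members of the longest runs, and genes within 0.05 of 0. Genes that flank runs, and the genes listed by name where the cell types or genotypes differ, were added after their values were seen. The members and the gene lists were chosen with earlier results of these data known. Genes with no value in 1 or both libraries (213 of 952) were left out of the changes. A few genes are counted but not reported here by name. Alternatives were another centring, a pseudocount of 0.1, filters on level, depth, length and overlap, another fold threshold and other start sites.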

Additional observations from a re-analysis of the deposited data

Results flagged for a closer look

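Some genes were lower in MD1 in one cell type and higher in the other, which singled them out for a closer look. The difference between the cell types was not tested, because each group holds 1 library.

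At a change of 2-fold or more, 20 genes were lower in MEFs and higher in EpiSCs. They made up 11.8% of the 170 genes lower in MEFs, beside 160 of all 698 shared genes that were higher in EpiSCs. Their median level went from 1.42 in WT to −1.40 in MD1 MEFs, and from 1.56 to 3.74 in EpiSCs. Lamp2, a lysosomal membrane protein gene, had 2.12 and −2.18 in MEFs and 2.53 and 3.97 in EpiSCs. Xiap, an inhibitor of cell death, had 1.53 and −2.37 in MEFs and 1.08 and 4.15 in EpiSCs. Both genes were under input in MD1 MEFs and highly enriched in MD1 EpiSCs. Cul4b, a ubiquitin ligase scaffold, had 1.94 and −0.82 in MEFs and 0.51 and 3.88 in EpiSCs. Brwd3, a bromodomain protein gene, was close to input in WT MEFs at −0.03 and had −2.30 in MD1 MEFs, while in EpiSCs it went from −1.62 to 2.64. Fmr1, an RNA-binding protein gene, had 1.32 and −0.30 in MEFs and 2.50 and 4.43 in EpiSCs. The counting interval of the MEF change included 0 for C1galt1c1 alone among the 20 (−3.23 to 0.06).

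The opposite pattern was found in 3 genes, Ripply1, Samt3 and Kcne1l, higher in MEFs and lower in EpiSCs. They made up 2.11% of the 142 genes higher in MEFs, beside 77 of all 698 shared genes that were lower in EpiSCs. The counting intervals of their MEF changes were wide, at 0.25 to 2.40, 0.64 to 2.45 and 0.43 to 3.78 in the same order. Ripply1, a repressor of somite genes, had 2.41 in WT and 3.73 in MD1 MEFs, and 5.04 and 3.98 in EpiSCs. Kcne1l, a potassium channel subunit gene, had 1.94 and 4.05 in MEFs and 5.46 and 3.80 in EpiSCs. These 3 genes were enriched in every library of H3K27me3, and the genotypes differed only in how much.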

How the results depend on the processing

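No paired analysis was possible because each group holds 1 library, and for the same reason no replicate could be left out. No called change of a named gene changed sign in any alternative run. The medians of 4 lists, from −0.17 to 0.28, did under another centring or filter. The balance of calls did turn, from more lower genes to more higher ones, without the lowest 10% of genes (122 lower, 156 higher), among genes that overlap no other gene (147 and 157) and at ChIP counts of at least 10 (142 and 150). The count of lower genes was within 1.5 times of 177 in every alternative, from 119 at 4-fold to 196 with changes centred on all genes. The count of higher genes was 108 among genes of at least 5000 bases and 38 at 4-fold. The median change of all genes was 0.00 once centred on itself and 0.056 when centred on genes with WT H3K9me3 under 2-fold over input. It was 0.44 without the lowest 10% of genes. That filter, which removes genes that fell, also moved 6 list medians toward 0, for example from −1.54 to −0.66 for RNA-binding genes. The pseudocount made the named changes smaller and took 11 of them outside their counting intervals, for example −6.90 to −5.30 for Nono. The longest runs and the shares of lower genes by CpG content kept within 1.5 times in all alternatives run for them. Alternatives on overlap, start sites and ChIP counts were chosen after seeing the data. Few ChIP counts in MD1 limit how deep a decrease can be measured.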

Other observations

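Some genes had a value in 1 genotype only in MEFs and entered no comparison. In WT only there were 8 genes, with levels from 0.11 to 3.74 and a median of 0.56, among them Sox3, a neural transcription factor, and the germline genes Magea2, Magea3 and Ssxb9. In MD1 only there were 15 genes, with levels from −0.91 to 3.40 and a median of 1.998, among them Pou3f4, a neural transcription factor, and Armcx3, Armcx5 and Gprasp2, which lie in the Armcx cluster. Neither library had a value for 190 genes, whose median length was 1960 bases beside 18663 for the genes compared. Short genes are therefore under-represented in every count given here.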
